A study of Mus musculus with 8 samples.

Results

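The genes described here are 9 transcriptional regulators of blood progenitors and mast cells: Gata1, Gata2 and Gata3, the GATA cofactor gene Zfpm1 (FOG1), Mitf, and the genes Tal1, Lyl1, Lmo2 and Ldb1 of the TAL1-LMO2-LDB1 complex. They were taken by symbol from a table of 54532 genes. Each of the 9 matched 1 row, had a read in all 8 libraries and passed the filter on low counts, which left 15009 genes to test. RNA had been sequenced from LSK cells, the lineage-negative, Sca-1-positive and c-Kit-positive fraction of mouse bone marrow that is enriched for stem cells and multipotent progenitors. There were 3 libraries from AML1/ETO mice, whose genotype is labelled Runx1-Runx1t1, and 5 from control mice labelled WT, all of strain C57BL/6. Both groups had received poly(I:C), a double-stranded RNA mimic often used to induce interferon-driven Cre alleles, as 4 injections of 5 mg/kg. Cells were sorted 4 weeks after that treatment. The labels give neither the age of the mice nor a promoter or Cre driver of the fusion allele, and do not say whether a library is 1 mouse or a pool. P-values therefore measure the spread between these libraries, which may be technical.

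GATA factors are zinc finger proteins that bind GATA motifs in DNA. GATA2 maintains stem and early progenitor cells and mast cells, GATA1 drives erythroid, megakaryocyte, eosinophil and mast cell differentiation, and GATA3 is best known in T cells and type 2 innate lymphoid cells. FOG1 is a cofactor brought to DNA by GATA factors. TAL1 and its close relative LYL1 are basic helix-loop-helix proteins that pair with E proteins on E-box motifs, LMO2 bridges them to GATA factors, and LDB1 dimerises to hold such complexes, and distant DNA sites, together. MITF is a helix-loop-helix leucine zipper protein that acts with GATA2 in mast cells and is the master regulator of melanocytes. In t(8;21) leukaemia cells the AML1-ETO fusion protein has been found in one complex with E proteins, LYL1, LMO2 and LDB1, which makes the supply of these partners of interest in cells that carry the fusion.

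The promoters of these genes, the stretches from 250 bases before to 50 bases after each annotated start, are shown for the genes that rose in AML1/ETO cells and whose window held a searched motif. RefSeq on GRCm38.p6 gave 14 such windows for 8 of the 9 genes, all but Lmo2. Motifs were searched on both strands: the GATA words AGATAA and AGATAG with their variants that begin with T, TGATAA and also TGATAG, the RUNX word TGTGGT, the E-box CAGATG that TAL1 pairs prefer, and the E-boxes that MITF binds, CACGTG and its variant CATGTG. The E-box CATGTG can overlap the RUNX word. Capitals mark the matches, written as they read on the gene's own strand, so a match on the other strand appears as its reverse complement. Mitf has several starts, and the gene counts used below sum over all of them.
Mitf start 1, chr6:97806808-97807107, + strand: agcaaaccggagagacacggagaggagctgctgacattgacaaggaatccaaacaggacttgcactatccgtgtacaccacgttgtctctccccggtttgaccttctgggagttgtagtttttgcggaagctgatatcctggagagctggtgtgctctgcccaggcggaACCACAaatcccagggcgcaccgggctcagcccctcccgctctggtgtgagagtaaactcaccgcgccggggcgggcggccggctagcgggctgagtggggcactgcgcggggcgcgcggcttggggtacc
Mitf start 2, chr6:97929567-97929866, + strand: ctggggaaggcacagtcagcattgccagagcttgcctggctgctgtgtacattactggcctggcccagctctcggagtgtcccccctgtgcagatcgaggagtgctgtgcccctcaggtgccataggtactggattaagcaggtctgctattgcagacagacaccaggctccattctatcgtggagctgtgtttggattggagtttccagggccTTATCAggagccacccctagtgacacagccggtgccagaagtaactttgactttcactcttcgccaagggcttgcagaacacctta
Mitf start 3, chr6:97991533-97991832, + strand: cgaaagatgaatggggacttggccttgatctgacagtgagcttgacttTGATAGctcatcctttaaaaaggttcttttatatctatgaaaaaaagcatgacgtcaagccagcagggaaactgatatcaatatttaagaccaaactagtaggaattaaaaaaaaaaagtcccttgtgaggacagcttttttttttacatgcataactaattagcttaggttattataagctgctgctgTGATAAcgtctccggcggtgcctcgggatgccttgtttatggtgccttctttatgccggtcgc
Tal1 start 1, chr4:115056176-115056475, + strand: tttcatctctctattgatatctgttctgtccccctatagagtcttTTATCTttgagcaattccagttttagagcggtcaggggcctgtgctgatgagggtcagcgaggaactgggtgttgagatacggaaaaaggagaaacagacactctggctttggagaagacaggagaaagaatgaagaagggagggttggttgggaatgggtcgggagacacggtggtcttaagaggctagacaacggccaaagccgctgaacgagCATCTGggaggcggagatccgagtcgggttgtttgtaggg
Ldb1 start 3, chr19:46037021-46037320, - strand: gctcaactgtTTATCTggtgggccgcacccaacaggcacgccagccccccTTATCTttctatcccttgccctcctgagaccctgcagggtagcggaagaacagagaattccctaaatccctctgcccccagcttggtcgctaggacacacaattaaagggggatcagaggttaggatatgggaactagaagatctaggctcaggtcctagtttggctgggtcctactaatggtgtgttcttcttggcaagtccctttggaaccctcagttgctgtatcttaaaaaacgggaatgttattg

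The window of Mitf start 1 held a RUNX word 81 bases before the start, that of start 2 a GATA word 36 bases before it, and that of start 3 held 2 GATA words, of which the nearer began 13 bases before the start. The window of Tal1 start 1 held a GATA word 205 bases before the start and a TAL1 E-box 11 bases after it, and that of Ldb1 start 3 held 2 GATA words. Neither Gata2 window and not the Lyl1 window held any of the searched words. Of the 14 windows 5 held a GATA word, that of Gata3 among them, against 29.8% of 32851 promoters of the same length. A RUNX word was in 1 window (16.8% of all promoters), a TAL1 E-box in 1 (17.2%) and a MITF E-box in 0 (20.4%). These are matches of letters and do not show that a factor binds there.

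Counts were scaled to CPM (the share of a library's reads, scaled to a common depth) with TMM factors, and the groups were compared with edgeR's quasi-likelihood test over the whole table, with Benjamini-Hochberg adjustment over all 15009 genes and a threshold of 0.05. Between 14693080 and 17527043 reads were counted per library. The first principal component separated the groups, and on the second AML1/ETO library 1 and control library 1 stood apart. Runx1t1, the ETO part of the fusion, stood at 53.9, 123 and 105 CPM in AML1/ETO libraries 1 to 3 and at 1.58 to 7.68 CPM in the controls. Kit, the gene of c-Kit, was present in all libraries at 378 CPM or more, and Ly6a, the gene of Sca-1, stood at 8.26 to 23.4 CPM in the controls and 221 to 921 CPM in AML1/ETO. Xist had 28559 to 33151 reads per AML1/ETO library against 0 to 111 per control, and the Y-linked Ddx3y had 0 against 3688 to 5038. Sex-linked expression and genotype thus cannot be told apart in any comparison, and Gata1 lies on the X chromosome.

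Of the 9 genes 5 rose in AML1/ETO cells, Gata2, Mitf, Tal1, Lyl1 and Ldb1, and none fell. Over all tested genes 25.7% passed the test, 11.6% as higher and 14.2% as lower. The expression of 4 of the 9, Gata2, Mitf, Tal1 and Ldb1, was higher in each AML1/ETO library than in any control, which held for 14.1% of all tested genes, and for 31.6% in either direction. The median log2 fold change of the 9 was 0.83, against −0.09 over all tested genes. In the sorted cells a change per cell and a change in the mix of cells cannot be told apart, and this holds for each gene below.

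**Figure D1:**
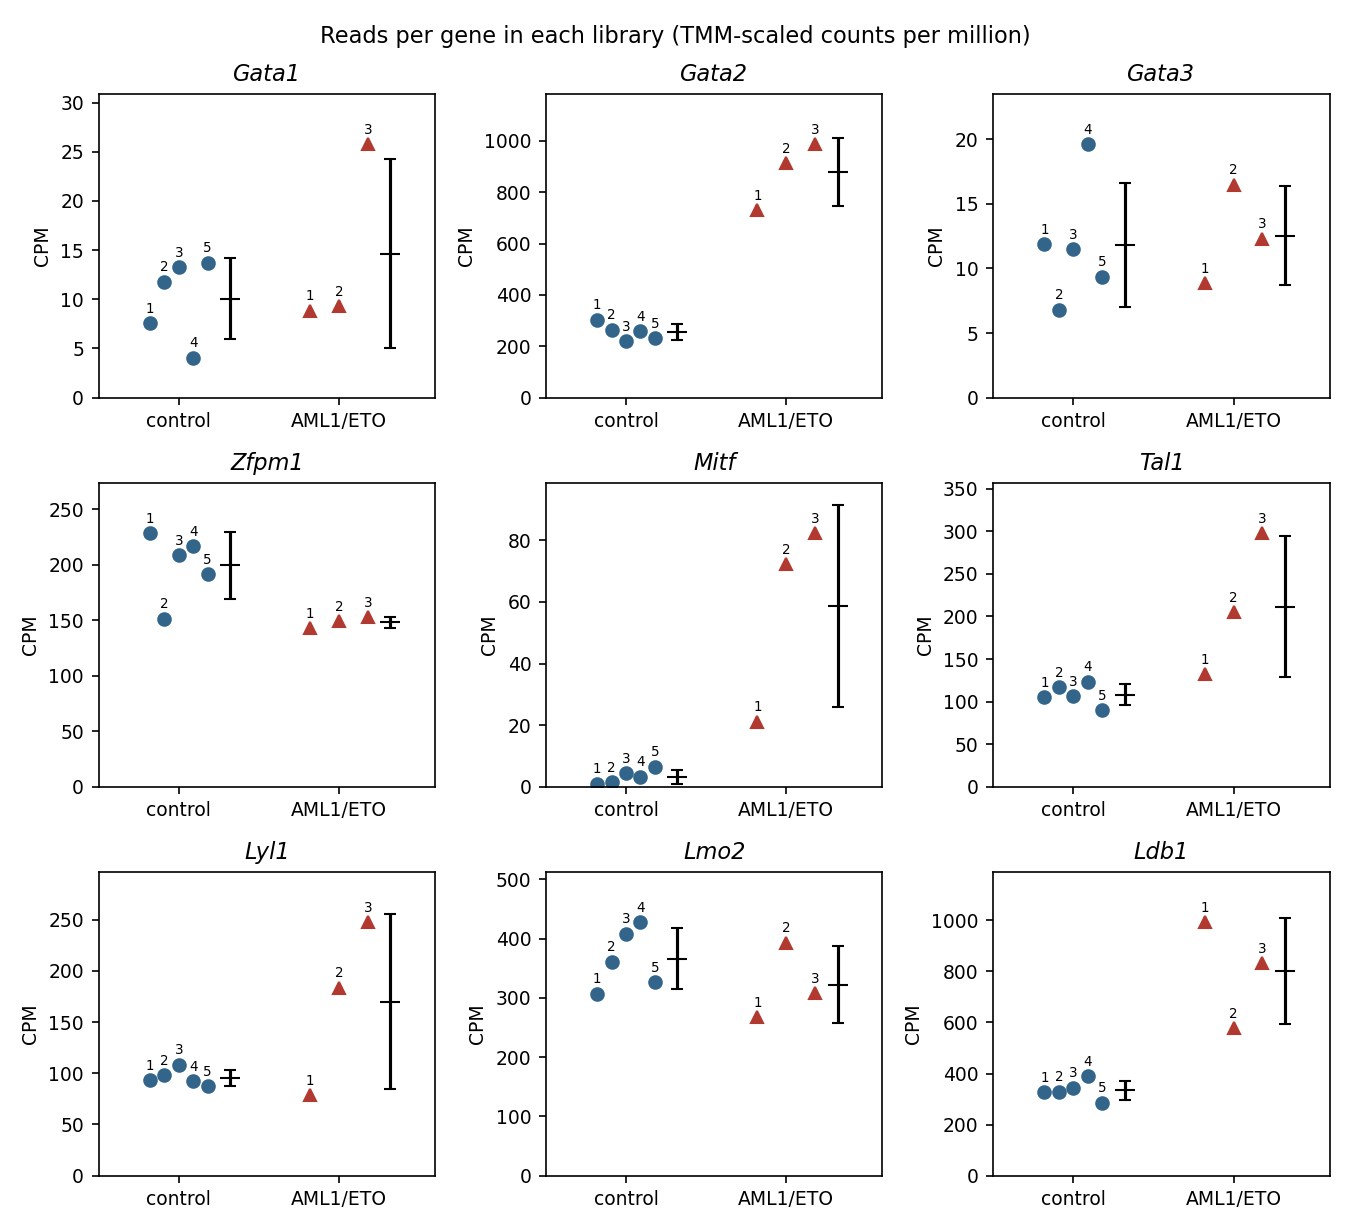
Each panel plots 1 gene in TMM-scaled CPM on a linear axis from 0; points are libraries, numbered as labelled, and the bar beside them is the mean ± SD (n = 5 controls, n = 3 AML1/ETO). For Gata2, Mitf, Tal1 and Ldb1 the groups do not overlap, and Lyl1 in AML1/ETO library 1 lies at 78.4 CPM, below all controls.

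Of Gata1, Gata2 and Gata3, only Gata2 passed the test. Gata2 (ENSMUSG00000015053, chromosome 6, 88193891 to 88207032 in mm10) stood at 731, 914 and 987 CPM in AML1/ETO libraries 1, 2 and 3. In controls 1 to 5 it stood at 304, 265, 219.7, 259.8 and 231 CPM. Every AML1/ETO library lay above every control, and library 1 was the lowest of the 3. The means were 878 ± 132 CPM (SD, n = 3) and 256 ± 32.8 CPM (SD, n = 5), a 3.43-fold rise (log2 fold change 1.78, SE 0.15, edgeR adjusted p = 1.13e-05). Over all alternative settings the log2 fold change ran from 1.63 to 1.96.

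Gata1 (ENSMUSG00000031162, chromosome X, 7959260 to 7978071) was low in LSK cells of both groups. It stood at 8.86, 9.31 and 25.8 CPM in AML1/ETO and at 7.54, 11.8, 13.3, 4.08 and 13.7 CPM in the controls. Only AML1/ETO library 3 stood above the controls, and the other AML1/ETO libraries lay within their range. The test was not passed (log2 fold change of 0.54, SE 0.53, edgeR adjusted p = 0.522), and without AML1/ETO library 3 the log2 fold change was −0.16. The log2 ratio of Gata2 to Gata1, taken on log2(CPM + 1), was 5.96 ± 0.67 (SD, n = 3) in AML1/ETO and 4.63 ± 0.76 (SD, n = 5) in the controls, and its ranges overlapped (5.21 to 6.47 against 3.95 to 5.68).

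Gata3 (ENSMUSG00000015619, chromosome 2, 9857078 to 9890034) stood at 8.86, 16.5 and 12.3 CPM in AML1/ETO and at 11.9, 6.80, 11.5, 19.6 and 9.35 CPM in the controls. All 3 AML1/ETO values lay within the control range. The log2 fold change was 0.09 (SE 0.45, edgeR adjusted p = 0.926). Zfpm1 (ENSMUSG00000049577, chromosome 8, 122282141 to 122337251), whose product FOG1 works with GATA1 in erythroid cells and megakaryocytes, stood at 143, 149 and 153 CPM in AML1/ETO. The controls stood at 228, 151, 209, 217 and 191 CPM. Control 2 lay within the AML1/ETO range and the other 4 controls above it. Zfpm1 missed the threshold (log2 fold change −0.43, SE 0.16, edgeR adjusted p = 0.0758). With libraries scaled by their totals alone, Zfpm1 passed as lower, at −0.58 (edgeR adjusted p = 0.0249; its alternatives ran from there to 0.279). That scaling shifted the median over all tested genes from −0.09 to −0.24.

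Mitf (ENSMUSG00000035158, chromosome 6, 97807052 to 98021349) showed the largest fold change of the 9. Its reads numbered 279, 1156 and 1259 in AML1/ETO libraries 1 to 3, or 21.1, 72.2 and 82.3 CPM. In the controls it had 16 to 112 reads, or 0.936, 1.41, 4.29, 3.20 and 6.42 CPM. Mitf in AML1/ETO library 1 was well below that in libraries 2 and 3, and still above every control. The means were 58.6 ± 32.8 CPM (SD, n = 3) and 3.25 ± 2.23 CPM (SD, n = 5), a 18.01-fold rise (log2 fold change 4.17, SE 0.60, edgeR adjusted p = 0.000440).

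Of the 4 subunit genes of the TAL1-LMO2-LDB1 complex, Ldb1, Tal1 and Lyl1 passed as higher and Lmo2 did not pass. Ldb1 (ENSMUSG00000025223, chromosome 19, 46031570 to 46045214) stood at 992, 578 and 831 CPM in AML1/ETO and at 326, 328, 344, 389.9 and 285 CPM in the controls. Every AML1/ETO library lay above every control, with library 2 the lowest of the 3. The rise was 2.39-fold, to 801 ± 209 CPM (SD, n = 3) from 335 ± 37.7 CPM (SD, n = 5) (log2 fold change 1.26, SE 0.18, edgeR adjusted p = 0.000347). The exons of Ldb1 share 177 bases with Pprc1 on the opposite strand, and no source used here gives the strand setting of the counting. Pprc1 had a log2 fold change of −0.45 (edgeR adjusted p = 0.184) at 77.7 against 106 CPM.

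Lmo2 (ENSMUSG00000032698, chromosome 2, 103957986 to 103981878), the bridge between TAL1 and GATA factors, stood at 267, 393 and 307 CPM in AML1/ETO and at 307, 361, 408, 428 and 327 CPM in the controls. The groups overlapped, and the log2 fold change was −0.18 (SE 0.17, edgeR adjusted p = 0.498). The log2 ratio of Ldb1 to Lmo2 on log2(CPM + 1) was 1.29 ± 0.68 (SD, n = 3) in AML1/ETO and −0.13 ± 0.13 (SD, n = 5) in the controls. Its ranges did not overlap, at 0.56 to 1.89 against −0.25 to 0.08; this ratio was not tested.

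Tal1 and Lyl1, the helix-loop-helix subunits, had smaller fold changes than Ldb1. Tal1 (ENSMUSG00000028717, chromosome 4, 115056426 to 115071755) stood at 132, 205 and 298 CPM in AML1/ETO and at 105, 117, 106, 123 and 89.8 CPM in the controls. Its groups did not overlap, though AML1/ETO library 1 lay close to the highest control. Tal1 rose 1.96-fold, to 212 ± 83.1 CPM (SD, n = 3) from 108 ± 12.7 CPM (SD, n = 5) (log2 fold change 0.97, SE 0.23, edgeR adjusted p = 0.00837). The call was lost without AML1/ETO library 3, at 0.63 (edgeR adjusted p = 0.0528, in a range from 0.000280 to 0.0628 over all alternatives).

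Lyl1 (ENSMUSG00000034041, chromosome 8, 84701457 to 84704715) stood at 78.4, 184 and 248 CPM in AML1/ETO and at 93.1, 97.9, 108, 92.2 and 87.6 CPM in the controls. AML1/ETO library 1 was below all 5 controls, and libraries 2 and 3 were above all of them. The mean of 170 ± 85.4 CPM (SD, n = 3) was 1.77-fold that of the controls, 95.8 ± 7.87 CPM (SD, n = 5), with a log2 fold change of 0.83 (SE 0.28, edgeR adjusted p = 0.0482). Of the 5 calls this one was lost under the most alternatives. It was lost without AML1/ETO library 2 (0.76, edgeR adjusted p = 0.112) or library 3 (0.44, adjusted p = 0.283) and without any single control (adjusted p = 0.0622 to 0.0878). The Lyl1 call was also lost with library totals alone (edgeR adjusted p = 0.0945) and with the replicate number as a block (adjusted p = 0.227). Without AML1/ETO library 1 the log2 fold change was 1.16 (edgeR adjusted p = 0.000297), and with both libraries numbered 1 left out it was 1.15 (adjusted p = 0.00107). The log2 ratio of Lyl1 to Tal1 overlapped between the groups, at −0.74 to −0.16 in AML1/ETO and −0.41 to 0.03 in the controls.

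**Figure D2:**
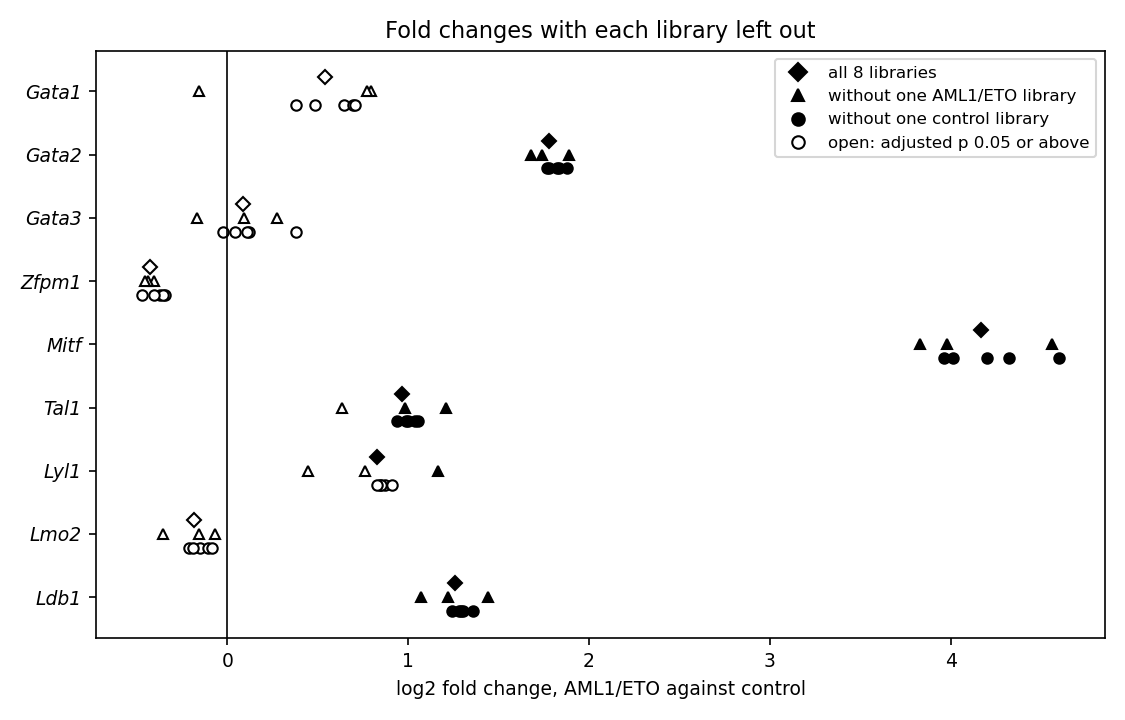
Log2 fold changes of the 9 genes (x axis) with all 8 libraries (diamonds) and with 1 AML1/ETO library (triangles) or 1 control library (circles) left out; filled symbols have an adjusted p under 0.05. Gata2, Mitf and Ldb1 stay filled throughout, Tal1 has 1 open triangle, and Lyl1 is filled with all libraries and without AML1/ETO library 1 alone.

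The AML1/ETO libraries also differed among themselves in a way that several of the 9 genes shared. Gata1, Gata2, Zfpm1, Mitf, Tal1 and Lyl1, 6 of the 9, were lowest in library 1 and highest in library 3, an order that 15.7% of all tested genes had. For Zfpm1 the 3 values differed by little, at 143 to 153 CPM. The mast cell protease Cpa3 had the same order, at 1771, 3627 and 6135 CPM in libraries 1, 2 and 3, and so did Ms4a2, a chain of the IgE receptor, at 38.4, 40.0 and 88.0 CPM. Cma1, at 120, 62.5 and 262 CPM, and Fcer1a, at 12.7, 12.1 and 45.1 CPM, were lowest in library 2. The summed CPM of all 8 mast cell markers, most of it Cpa3, was 1995 to 6529 in AML1/ETO and 9.90 to 30.4 in the controls. Of those markers Cpa3, Cma1, Fcer1a and Ms4a2 rose, Fcer1a not without AML1/ETO library 3 (edgeR adjusted p = 0.112). Mcpt4 and Tpsab1 had reads in AML1/ETO library 1 alone and Tpsb2 in libraries 1 and 2, too few libraries for the test. Mrgprb2 had no read in any library. Ldb1 did not have this order, being highest in library 1. The part of mast cell transcripts in the rise of Gata2, Mitf, Tal1 and Lyl1 was not tested.

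Levels can be compared between genes once divided by the length of the exons. In control LSK cells Lmo2 was the most abundant of the 9, at 169 ± 23.8 CPM per kilobase (SD, n = 5), followed by Ldb1 at 72.7 ± 8.19. Zfpm1 (56.9 ± 8.58), Lyl1 (53.2 ± 4.37) and Gata2 (47.4 ± 6.07 CPM per kilobase) came next, and neighbours among these 3 did not differ beyond their spread. Tal1 followed at 24.7 ± 2.90 CPM per kilobase. Gata1 at 4.13 ± 1.70 and Gata3 at 2.97 ± 1.21 overlapped, and Mitf was last, at 0.525 ± 0.360 CPM per kilobase. By level per length among all tested genes Lmo2 was at percentile 98.7, Tal1 at 84.9 and Mitf at 12.9.

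In AML1/ETO cells the order by level per length was led by Ldb1 at 174 ± 45.3 CPM per kilobase (SD, n = 3), Gata2 at 163 ± 24.5 and Lmo2 at 149 ± 29.7, whose ranges overlapped. Lyl1 (94.4 ± 47.5), Tal1 (48.3 ± 19.0) and Zfpm1 (42.3 ± 1.43 CPM per kilobase) came next, again with overlapping ranges between neighbours. Mitf, at 9.45 ± 5.30 CPM per kilobase and percentile 65.1, stood before Gata1 (6.01 ± 3.95) and Gata3 (3.15 ± 0.961). The range of Gata2, 135 to 183 CPM per kilobase, reached that of Lmo2, 123 to 181.

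**Figure D3:**
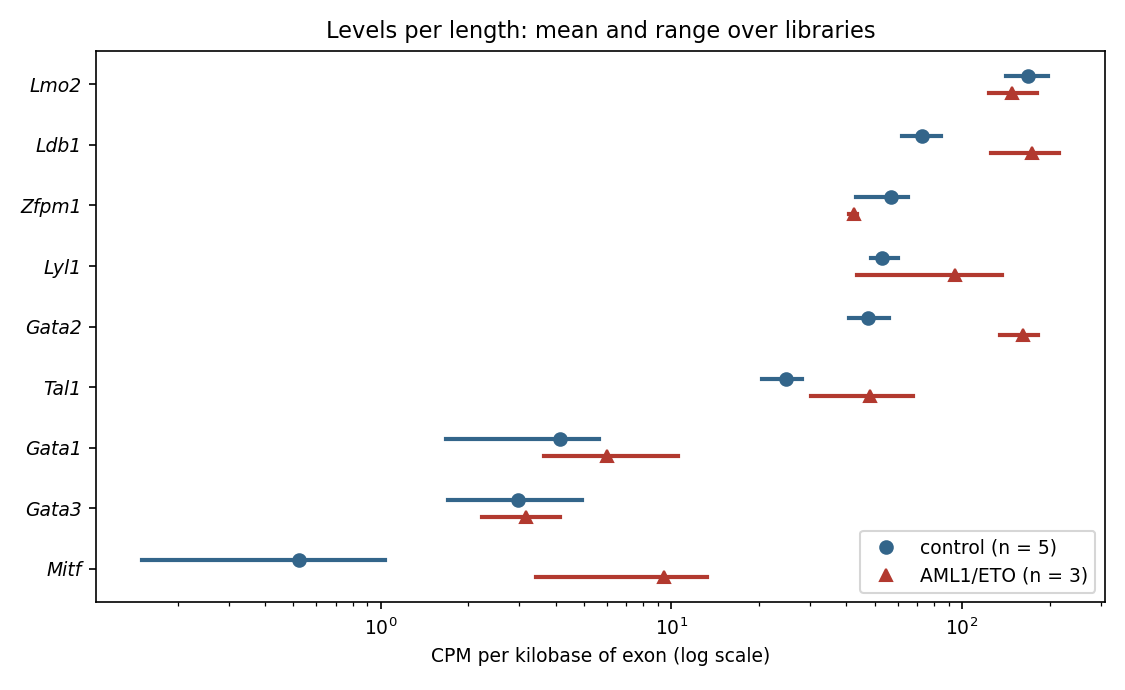
Mean (symbol) and range over libraries (line) of each gene in CPM per kilobase of exon, on a log axis, for 5 control and 3 AML1/ETO libraries. Lmo2 leads in the controls at 169, and in AML1/ETO the ranges of Ldb1, Gata2 and Lmo2 overlap, with means of 149 to 174.

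The paralogues of the 9 were measured as well. Of the MiT family, Tfeb, a regulator of lysosome genes, fell 2.57-fold, to 17.2 ± 5.62 CPM (SD, n = 3) from 44.2 ± 7.93 CPM (SD, n = 5) (log2 fold change −1.36, edgeR adjusted p = 0.00455). Tfec, a myeloid member, had 88 to 189 reads in the controls and 0 in all AML1/ETO libraries, at least 33.3-fold lower when the floor is set at 3 reads per library. Tfe3, which lies on the X chromosome, did not pass, at 58.2 against 73.1 CPM (edgeR adjusted p = 0.393). None of these 3 relatives of Mitf passed as higher.

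Gata6, a GATA factor of endoderm and heart, had 93, 36 and 49 reads in AML1/ETO libraries 1 to 3 and none in any control, at least 24.1-fold higher. Gata4, Gata5 and Zfpm2 had no read in any library, and Trps1, an atypical GATA repressor, stood at 44.3 against 52.4 CPM (edgeR adjusted p = 0.479). Lmo1, a relative of Lmo2 known as a T cell oncogene, had 36 to 105 reads in the controls and 0 in AML1/ETO, at least 20.6-fold lower. Lmo4 stood at 34.2 against 49.8 CPM (edgeR adjusted p = 0.177) and passed as lower without AML1/ETO library 2 (−0.92, edgeR adjusted p = 0.0305, the lowest over its alternatives). Lmo3, Ldb2 and Nhlh2 had no read, Tal2 had 11 reads in 1 control and Nhlh1 60 reads in AML1/ETO library 3. Of 2344 genes with a mean of 50 to 200 control reads and a read in every control, 6.31% were at 0 in all AML1/ETO libraries, so limits drawn from 0 reads cover counting error only. Reads at 0 were also more frequent in some libraries: where the rest of a library's group predicted 20 to 50 reads, AML1/ETO libraries had none for 41.4% to 51.1% of genes and control 1 for 46.2%, against 10.5% to 27.0% in controls 2 to 5. The part of this difference in the genes listed here and below with no read in AML1/ETO was not tested.

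The partners with which these factors form complexes moved both ways: of 19 tested, 4 rose, 3 fell and 12 did not pass, with a median log2 fold change of 0.14. Over all tested genes 11.6% rose and 14.2% fell. Among the 4 risers was Runx1t1, the ETO part of the fusion, so its reads need not come from the native gene. Erg, an ETS factor that shares many stem cell binding sites with GATA2, TAL1, LYL1, LMO2 and RUNX1, rose 2.31-fold, to 290 ± 40.0 CPM (SD, n = 3) from 126 ± 21.6 CPM (SD, n = 5) (edgeR adjusted p = 0.000457). Its relative Fli1 (121 against 92.1 CPM, adjusted p = 0.128) and Runx1 (212 against 151 CPM, adjusted p = 0.187) did not pass. Without AML1/ETO library 1, Runx1 passed as higher (0.78, edgeR adjusted p = 0.00932). The genotype label names Runx1 as a part of the fusion, and counts per gene do not separate fusion reads from those of native Runx1. Ssbp4, of the family of single-stranded DNA-binding proteins that stabilise LDB1, rose 1.52-fold (log2 fold change 0.60, edgeR adjusted p = 0.0133). Its call was lost without AML1/ETO library 3 (0.47, edgeR adjusted p = 0.0749) and with the replicate number as a block (0.56, adjusted p = 0.103). Ssbp2 and Ssbp3 did not pass, with log2 fold changes of −0.09 and 0.21.

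Of the E proteins that pair with TAL1 and LYL1, Tcf4 fell, to 114 ± 8.14 CPM (SD, n = 3) from 194 ± 21.5 CPM (SD, n = 5) (log2 fold change −0.76, edgeR adjusted p = 0.00351). Tcf3 (137 against 173 CPM) and Tcf12 (127 against 115 CPM) did not pass. Among corepressors, Rcor1 rose 1.74-fold and the histone demethylase gene Kdm1a fell 1.61-fold, although their products work in one complex. Gfi1b, a repressor that recruits this complex and is a GATA1 target in erythroid cells, fell 19.6-fold, with 0, 30 and 26 reads in AML1/ETO against 288 to 560 in the controls. The ETO relative Cbfa2t3, a subunit of TAL1 complexes, stood at 80.2 against 52.9 CPM (edgeR adjusted p = 0.109), and passed as higher without AML1/ETO library 1 (0.84, adjusted p = 0.0196).

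**Figure D4:**
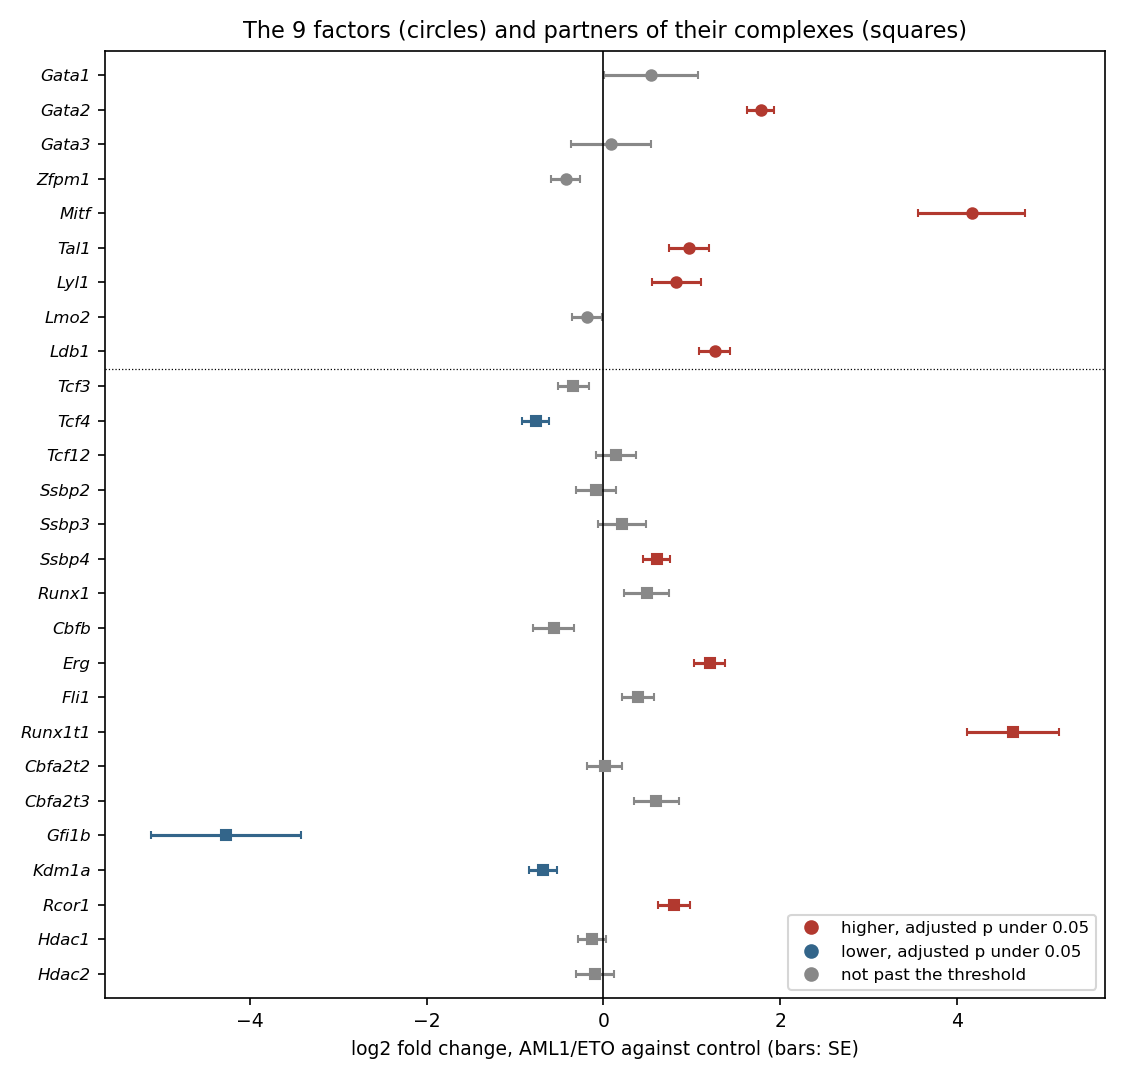
Log2 fold changes of AML1/ETO against control with their standard errors for the 9 genes (circles, above the dotted line) and for 18 of the 19 partner genes (squares); Klf1, whose standard error is 2.42, is left out. Red symbols rose, blue fell and grey did not pass. Among the partners Runx1t1 (the ETO part of the fusion), Erg, Rcor1 and Ssbp4 are red, and Gfi1b, Tcf4 and Kdm1a are blue.

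Of the genes listed as mast cell targets of GATA2 and MITF, 16 were tested. Of these 10 rose and 1 fell, with a median log2 fold change of 1.66. With no filter 14 genes of the list passed as higher. Cpa3, a mast cell carboxypeptidase, rose to 3844 ± 2190 CPM (SD, n = 3) from 14.3 ± 5.87 CPM (SD, n = 5). Il1rl1, the IL-33 receptor, rose 171-fold, and Slc18a2, which loads histamine and monoamines into granules, rose 4.17-fold to 414 ± 25.3 CPM (log2 fold change 2.06, edgeR adjusted p = 4.10e-06). Kit, the receptor on which mast cells and stem cells depend, rose 3.22-fold. The prostaglandin D synthase gene Hpgds was the gene that fell, to 1.58 from 17.8 CPM. Its call was lost without control 2 (edgeR adjusted p = 0.0636) and without control 4 (adjusted p = 0.0622). It was also lost with the replicate number as a block (edgeR adjusted p = 0.118) and with limma-voom (adjusted p = 0.147). Without AML1/ETO library 1, 3 genes of the list were lower. One of these was Fcer1g, the shared Fc receptor chain, which stood at 11.9 against 20.4 CPM and did not pass with all libraries. Pigment cell targets of MITF were near silent: 8 of 12 had no read in any library, and the 1 tested, Pmel, did not pass (8.07 against 1.12 CPM, edgeR adjusted p = 0.104). It passed with DESeq2 (adjusted p = 0.0348) and with limma-voom (adjusted p = 0.0278).

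Of 10 basophil and eosinophil genes 5 were tested and 4 of them fell, with a median log2 fold change of −4.75 when genes at 0 reads are held at their bound. Prg2 and Epx, eosinophil granule genes, Prss34, a basophil protease, and Cebpe, a granulocyte factor, had no read in AML1/ETO. Prg2 was at least 106-fold lower, and under limma-voom its adjusted p was 0.193. For Epx the limma-voom adjusted p was 0.273, and without both libraries numbered 1 the edgeR adjusted p was 0.0590. Some genes of the list went the other way, with no read in any control and reads in too few libraries for the test. Ear2 had 48 reads in AML1/ETO library 1, and Il5ra had 85 and 23 in libraries 2 and 3. Cd200r3 had 101 and 64 reads in libraries 1 and 3. Prg3 and Ccr3, also not tested, had reads in 1 control each and none in AML1/ETO. With no filter 2 genes of the list passed as higher, and 1 did without AML1/ETO library 1 or library 2. Markers of neutrophils, macrophages, T and NK cells and B cells, of 7 or 8 genes each, were mostly lower in sum, though not gene by gene. Their summed CPM was 0 to 62.6 in AML1/ETO against 119 to 283 in the controls for neutrophils (3 of 6 tested lower), 7.06 to 40.1 against 49.5 to 124 for macrophages (2 of 6 lower) and 2.27 to 9.31 against 60.9 to 115 for T and NK cells (1 of 2 lower). For B cells it was 5.30 to 10.8 against 7.57 to 75.8 (5 of 7 lower). The sum of 7 megakaryocyte markers was not lower, at 209 to 643 against 179 to 310 CPM, most of it Itga2b (1 of 4 tested higher, 1 lower). The T and NK sum in the controls was nearly all Nkg7, at 60.9 to 114 CPM. Of those 8 markers 5 had no read in any library. Among the macrophage markers, Mrc1 (63, 0 and 96 reads) and C1qb (48, 0 and 39 reads) had reads in AML1/ETO alone, in too few libraries for the test. The sum of 9 stromal and endothelial markers was higher, at 349 to 460 against 155 to 201 CPM, with 2 of 4 tested higher and 1 lower. Most of it was Pecam1 (250 against 119 CPM) and Pdgfrb (140 against 41.5 CPM), the 2 that rose. Cdh5, Kdr, Cxcl12, Lepr and Pdgfra had no read in AML1/ETO. The part of all these lineage markers in the results was not tested. The basophil protease gene Mcpt8 stood at 13.4 against 7.14 CPM (edgeR adjusted p = 0.481).

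Of 20 tested erythroid targets of GATA1 and TAL1, 1 rose and 7 fell, with a median log2 fold change of −1.33. Hemgn, a nuclear protein of erythroid progenitors, had 0 reads in AML1/ETO against 14.98 ± 4.76 CPM (SD, n = 5), at least 73.6-fold lower. Tfrc, the transferrin receptor, fell 2.07-fold and Nfe2, an erythroid and megakaryocyte factor, fell to 60.8 from 139.7 CPM. The riser was Hbb-bt, a beta-globin gene, with 36, 216 and 940 reads in AML1/ETO and 2 reads in all controls together; its near copy Hbb-bs had 38 reads in AML1/ETO library 1, 69 and 168 in controls 2 and 3 and none in the others, so the split of reads between the pair is uncertain. Klf1, the erythroid master factor, had 0 to 52 reads per library. The summed CPM of 8 erythroid cell markers was 19.6 to 61.5 in AML1/ETO and 8.31 to 52.5 in the controls. Hbb-bt made up all of that sum in AML1/ETO library 3 and 13.5 of 19.6 CPM in library 2.

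Megakaryocyte targets of GATA1 and FOG1 went both ways, with 3 of 14 tested higher and 6 lower and a median log2 fold change of −1.09. Without AML1/ETO library 3 the count of higher genes was 1. Vwf, von Willebrand factor, had no read in AML1/ETO against 40.3 ± 9.67 CPM (SD, n = 5), at least 198-fold lower. Cd9, a tetraspanin of platelets, fell 11.4-fold, and Thbs1, thrombospondin, fell to 1.67 from 84.1 CPM, its reads coming from AML1/ETO library 2 alone. Itga2b, the platelet integrin CD41, stood at 638, 191 and 495 CPM in AML1/ETO and at 165 to 286 CPM in the controls, with library 2 inside the control range. It passed as higher, 1.90-fold (edgeR adjusted p = 0.0437), and lost the call without AML1/ETO library 1 (adjusted p = 0.196), library 3 (adjusted p = 0.124) or any control but control 4 (adjusted p = 0.0679 to 0.0863). The Itga2b call was also lost with library totals alone (edgeR adjusted p = 0.0764), without both libraries numbered 1 (adjusted p = 0.229) and with limma-voom (adjusted p = 0.101). Rab27b rose 1.92-fold (edgeR adjusted p = 0.0123, 0.0599 without AML1/ETO library 3 and 0.113 with the replicate number as a block). Of the T cell and ILC2 genes linked to GATA3, 8 of 15 were tested: Tcf7 and Lck fell and the other 6 did not pass. Il7r stood at 27.5 ± 29.6 CPM (SD, n = 3) against 1.72 ± 1.82 CPM (SD, n = 5), with an edgeR adjusted p = 0.0791, and 0.0160 without AML1/ETO library 2.

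Stem cell genes listed as bound by GATA2, TAL1, LYL1, LMO2, RUNX1, ERG and FLI1 numbered 18. Of these 11 rose and 3 fell, with a median log2 fold change of 1.12. Besides Kit and Erg, the risers included Gfi1 at 275 ± 41.6 against 17.2 ± 9.73 CPM and Myb at 585 against 197 CPM. Hlf, Meis1 and Hhex were also risers, at log2 fold changes of 1.16, 1.07 and 1.05. Spi1, which encodes PU.1, an antagonist of GATA factors, fell 6.08-fold to 57.0 ± 8.07 CPM (SD, n = 3), and Mecom fell 5.32-fold. Tek, of the same list, stood at 4.01, 4.56 and 2.81 CPM in AML1/ETO against 8.19 to 17.2 CPM in the controls. Angpt1 stood at 44.4, 99.5 and 15.4 CPM against 75.3 to 183 CPM, with AML1/ETO library 2 inside the control range. Cd34 did not pass, at 739 against 683 CPM (edgeR adjusted p = 0.721). These gene lists were drawn up with earlier results of the same data known and share genes with each other, so their counts describe these libraries and are not independent evidence of a direction. Whether the named factors bind or control the listed genes was not tested.

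**Figure D5:**
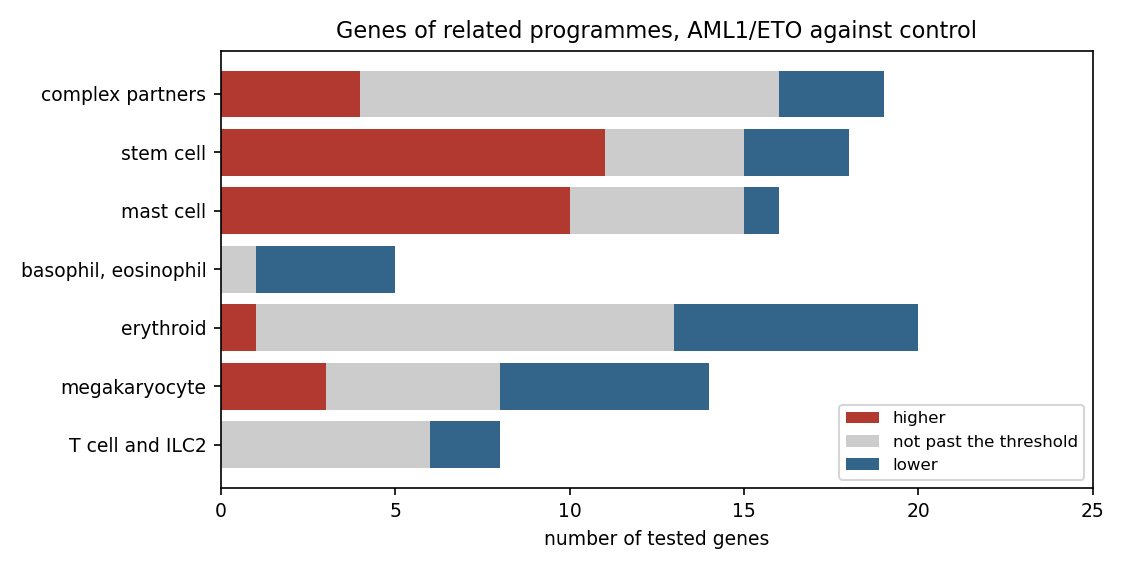
Number of tested genes in 7 lists that rose (red), fell (blue) or did not pass (grey) in AML1/ETO against control. The mast cell list has 10 risers of 16, the stem cell list 11 of 18, and the erythroid list 1 riser and 7 fallers of 20.

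By the root mean square difference of log2(CPM + 1) over the 8 libraries, after centring each gene on its mean, the profile of Gata2 was most like those of Limk2 (0.12) and Flad1 (0.14), where the median over 9810 named protein-coding genes was 1.02. Mitf was nearest to Tgfbr3 (0.35) and Fn3krp (0.46), with a median of 2.06. Ldb1 was nearest to Brf1 and Preb (both 0.11), Tal1 to Jcad (0.11) and Ube2o (0.15), and Lyl1 to Nudt13 (0.14) and Irf2bp1 (0.15). For the genes that did not pass, the nearest were Klhl15 and Sac3d1 for Gata1, Casp6 and Txndc12 for Gata3, Atp5d and Luc7l3 for Zfpm1, and Orc3 and Tonsl for Lmo2. Tgfbr3, the beta-glycan co-receptor of TGF-beta, rose to 171 ± 72.9 CPM (SD, n = 3) from 14.01 ± 4.87 CPM (SD, n = 5) (edgeR adjusted p = 2.32e-05).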

How the data were processed

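The authors deposited whole-number read counts per Ensembl gene for each of the 8 libraries. HISAT2 2.0.5, the build mm10 and featureCounts 1.5.0-p3 appear in the submitters' processing notes. No source used here gives the annotation release, the strand setting or the handling of multiply aligned reads. Coordinates and exon lengths came from GENCODE M21 on GRCm38, which matched 54409 gene identifiers; 123 did not match.

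The 9 genes and all 20 gene lists, the list of the 9 included, were chosen with earlier results of these data known. Counts were filtered with filterByExpr, scaled with TMM and tested with edgeR 4.0.16 in R 4.3.3 (glmQLFit, glmQLFTest, two-sided, no covariates, all 8 libraries). Standard errors come from the quasi-likelihood F statistic. The procedure was tested on simulated counts. Genes were named by rule: the 9, their paralogues, up to 5 per list by smallest p and genes at 0 in a group, and the 2 most similar profiles; any other list member named was picked with its values in view. Alternatives were DESeq2 1.42.0, limma-voom (limma 3.58.1), other scalings and filters, libraries left out, and a replicate block. Intervals and floors cover counting error only.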

Additional observations from a re-analysis of the deposited data

How the results depend on the processing

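Gata2, Mitf and Ldb1 passed as higher under every alternative run. Of the genes that passed over the whole table, 44.9% were higher, against 34.2% with library totals alone. With library totals alone, 4 of the 9 genes were higher and 1, Zfpm1, lower. Leaving out 1 library gave 3 to 5 of the 9 higher and 0 lower, and 1385 to 1752 genes higher and 1537 to 2287 lower over the whole table. In the lists other than those of cell type markers it gave 24 to 30 higher and 24 to 30 lower. Of values that changed sign, none had passed: Gata1 ranged from −0.16 to 0.79 with a library left out and Gata3 from −0.17 to 0.38, Gata3 was at −0.053 with library totals alone, and Mcpt8 at −0.060 with limma-voom. Likewise Tcf12 was at −0.0073 with limma-voom, −0.0068 with library totals alone and −0.076 without both libraries numbered 1, Cd34 at −0.024 with library totals alone and Ssbp3 at −0.053 with the block. With a library left out Ssbp2 ranged from −0.31 to 0.11, Cd34 from −0.031 to 0.33 and Klf1 from −6.84 to 0.82. With the replicate number as a block, 3 of the 9 were higher (Tal1 at edgeR adjusted p = 0.0628 and Lyl1 at 0.227 were lost), and 951 genes were higher and 1098 lower. In the lists other than those of cell type markers, 16 genes were then lower in place of 27. The deviations of same-numbered libraries correlated at 0.07, −0.05 and 0.06, and the labels do not say what a shared number means. On the second principal component both libraries numbered 1 stood at the positive end, AML1/ETO at 77.4 and control at 29.4. Whether same-numbered libraries share a batch was not tested. Depth limits the low genes: Mitf had 16 and 24 reads in controls 1 and 2.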
